A study of Caenorhabditis elegans with 24 samples.

Results

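The genes described are the 7 fatty acid desaturase genes of Caenorhabditis elegans, fat-1, fat-2, fat-3, fat-4, fat-5, fat-6 and fat-7. They were taken by gene symbol from a table of 16927 genes, and all 7 were among the 14561 genes tested, those whose group mean reached 1 CPM (mapped reads scaled to a common library total) somewhere. RNA from whole worms was sequenced after poly(A) selection in 24 libraries, 3 for each of 8 groups. The groups were the atfs-1 mutant strain VC3201 and the wild type N2, each given both RNAi clones (cco-1 and elt-2 mixed, 50% each), elt-2 RNAi (50%, with 50% control RNAi), cco-1 RNAi (50%, with 50% control RNAi), or control RNAi alone. A note deposited with the table gives 25% for elt-2 RNAi where the labels give 50%. All worms were fed RNAi bacteria at 20 °C for 2.5 days and collected as L4 larvae or young adults. cco-1 encodes a subunit of mitochondrial cytochrome c oxidase, elt-2 encodes the main intestinal GATA factor, and the product of atfs-1 drives the mitochondrial unfolded protein response. The labels do not say whether replicates came from separate cultures, so p-values measure only the spread between these libraries.

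Fatty acid desaturases place double bonds in acyl chains, and worms use them in series to make all of their polyunsaturated fatty acids. FAT-5 acts on palmitoyl-CoA, and FAT-6 and FAT-7 act mainly on stearoyl-CoA to make oleic acid. FAT-2 then turns oleic into linoleic acid, FAT-1 makes omega-3 from omega-6 fatty acids, and FAT-3 and FAT-4 add further double bonds on the way to arachidonic and eicosapentaenoic acid. The intestine and hypodermis are the main sites of this synthesis, and fat-5, fat-6 and fat-7 are known targets of the lipid regulators SBP-1, MDT-15, NHR-49 and NHR-80.

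In the WBcel235 genome (Ensembl release 115 annotation), 5 of the genes lie on chromosome IV and 2 on chromosome V. fat-4 (WBGene00001396, IV:9799429-9802226) and fat-3 (WBGene00001395, IV:9803023-9806119) are neighbours on the plus strand, 796 bases apart. fat-1 (WBGene00001393, IV:13315644-13318811) and fat-2 (WBGene00001394, IV:13323873-13326395) follow each other on the plus strand 5061 bases apart. fat-6 (WBGene00001398, IV:11913692-11915687) and fat-7 (WBGene00001399, V:7151353-7153146) lie on minus strands of different chromosomes, and fat-5 (WBGene00001397, V:17725004-17726818) lies on the plus strand. fat-6 and fat-7 are close paralogs, so reads could be split between them, and how the authors counted such reads is not given in the sources used here. In fat-5, 28 of the 1104 exon bases are shared with the antisense gene twk-42, and whether strand was used in counting is not given either.

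The deposited values were CPM after quantile normalization over all libraries, so every library summed to 1000373 CPM and original depth was read only from low values. Ranked back from tied low values, 1 CPM stood for 8 to 38 reads, depending on the library. cco-1 transcripts averaged 67.4 ± 3.61 CPM in VC3201 given both RNAi, 125 ± 11.3 given cco-1 RNAi and 346 ± 11.1 CPM in VC3201 control (SD, n = 3 each), and in N2 the same groups averaged 72.9 ± 5.99, 128 ± 5.85 and 292 ± 35.6 CPM. elt-2 transcripts averaged 9.05 ± 3.66 CPM with both RNAi, 10.4 ± 4.93 with elt-2 RNAi and 16.9 ± 0.673 in control in VC3201, against 8.35 ± 1.61, 10.5 ± 0.958 and 17.3 ± 1.70 CPM in N2. The VC3201 library labelled elt-2 RNAi replicate 3 had 15.98 CPM of elt-2, above the other libraries of its group (6.52 and 8.84 CPM) and close to VC3201 control. atfs-1 ranged from 20.0 to 29.3 CPM over the VC3201 libraries and from 71.0 to 85.5 CPM over the N2 libraries. No replicate pair agreed within sampling noise (chi-square per gene 1.22 to 1.61 over 24 pairs).

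fat-7, a stearoyl-CoA desaturase gene, had the widest range of the family. In VC3201 it stood at 0.0220, 0.0220 and 0.0496 CPM in the libraries given both RNAi, 0.0220, 0.152 and 0.0881 CPM with elt-2 RNAi, 3.18, 2.27 and 3.40 CPM with cco-1 RNAi, and 54.3, 45.9 and 51.7 CPM in control. In N2 it stood at 0.239, 0.376 and 0.426 CPM with both RNAi, 3.24, 3.49 and 3.15 CPM with elt-2 RNAi, 4.93, 3.89 and 3.96 CPM with cco-1 RNAi, and 69.6, 68.8 and 67.4 CPM in control. Every RNAi library lay below every control library of its strain, and either RNAi alone took the mean in N2 to 0.0621 (cco-1) or 0.0480 (elt-2) of its control. A value of 0.0220 CPM corresponds to 0 reads. The VC3201 libraries given both RNAi held 0, 0 and 1 fat-7 reads, which is 0.0187% of the VC3201 control level (95% exact Poisson interval 0.000473% to 0.104%, counting error only). The VC3201 libraries given elt-2 RNAi held 0, 4 and 2 reads, or 0.115% of control (interval 0.0422% to 0.250%), while N2 worms given both RNAi held 6, 10 and 11 reads, or 0.552% of N2 control (0.364% to 0.803%). At so few reads, both RNAi and elt-2 RNAi in VC3201 could not be told apart for fat-7.

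fat-5, the palmitoyl-CoA desaturase gene, was lower with either RNAi clone in both strains, to different extents in N2. In VC3201 it had 1.52, 2.04 and 1.62 CPM with both RNAi, 2.41, 1.87 and 2.45 CPM with elt-2 RNAi, 2.02, 2.77 and 2.13 CPM with cco-1 RNAi, and 41.3, 46.2 and 39.9 CPM in control. In N2 it had 4.12, 3.81 and 4.11 CPM with both RNAi, 24.3, 21.8 and 23.9 CPM with elt-2 RNAi, 7.80, 7.36 and 7.73 CPM with cco-1 RNAi, and 51.4, 54.8 and 56.3 CPM in control. All 4 N2 groups were separate from each other, whereas the 3 RNAi groups of VC3201 overlapped. twk-42, which shares exon bases with fat-5 on the other strand, averaged 2.02 CPM with both RNAi, 1.70 with elt-2 RNAi, 5.54 with cco-1 RNAi and 6.10 CPM in control in VC3201, and 5.92, 5.15, 7.33 and 7.74 CPM in the same N2 groups. Its part in the low fat-5 values was not tested.

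fat-6, the other stearoyl-CoA desaturase gene, was the most abundant of these 3 and moved least. In VC3201 it had 98.4, 83.3 and 86.4 CPM with both RNAi, 108, 96.3 and 90.5 CPM with elt-2 RNAi, 291, 239.9 and 291 CPM with cco-1 RNAi, and 306, 311 and 289.6 CPM in control. In N2 it had 136, 133 and 134 CPM with both RNAi, 215, 195 and 189.5 CPM with elt-2 RNAi, 272, 263 and 249 CPM with cco-1 RNAi, and 285, 314 and 300.1 CPM in control. The libraries given elt-2 RNAi or both RNAi lay below all others of their strain, while VC3201 cco-1 RNAi and control overlapped.

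Scaled by exon length, the 3 genes together stood at 78.2 ± 6.64 CPM per kb of exon in VC3201 given both RNAi, 86.5 ± 7.86 with elt-2 RNAi, 239.5 ± 25.3 with cco-1 RNAi and 343 ± 10.5 in control. In N2 the same sums were 119 ± 1.43, 196 ± 12.2, 235 ± 10.4 and 367 ± 13.4 CPM per kb (SD, n = 3 each). fat-6 made up 97.9%, 97.5%, 98.0% and 75.6% of this sum in the VC3201 groups in that order, and 96.7%, 87.7%, 95.4% and 70.0% in N2. fat-7 made up 13.1% in VC3201 control and 16.6% in N2 control, and between 0.0359% and 1.61% in the 6 RNAi groups. The 0.0359%, of VC3201 given both RNAi, takes libraries without fat-7 reads at the floor of 0.0220 CPM. It is set mostly by that floor, as the reads give 0.00947 CPM against the mean of 0.0312 CPM used. The fat-1 to fat-4 sum stayed between 647 and 796 CPM per kb in all 8 groups. The ratio of the fat-1 to fat-4 sum to the fat-5, fat-6 and fat-7 sum was 10.1 ± 0.472 with both RNAi, 8.61 ± 0.549 with elt-2 RNAi, 3.22 ± 0.308 with cco-1 RNAi and 2.13 ± 0.0987 in control in VC3201. It was 6.19 ± 0.181, 4.08 ± 0.175, 3.29 ± 0.119 and 1.76 ± 0.0318 in the same groups of N2.

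**Figure D1:**
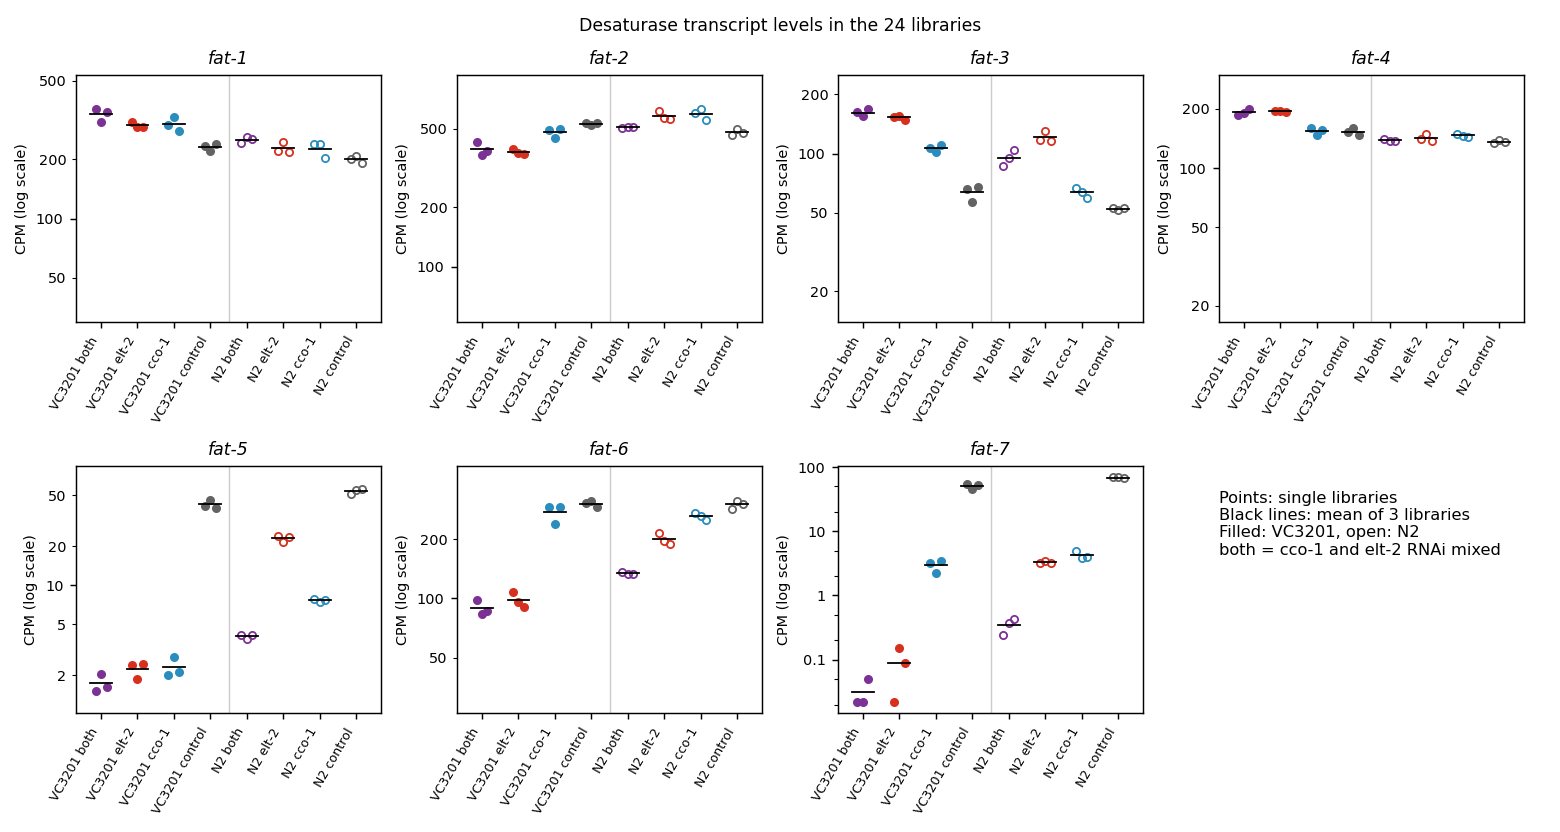
CPM of each desaturase gene in each of the 24 libraries on a log axis, by group, with the mean of 3 libraries as a black line, VC3201 filled and N2 open. fat-7 and fat-5 fall furthest below their controls, while fat-1 and fat-3 are lowest in N2 control.

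**Figure D2:**
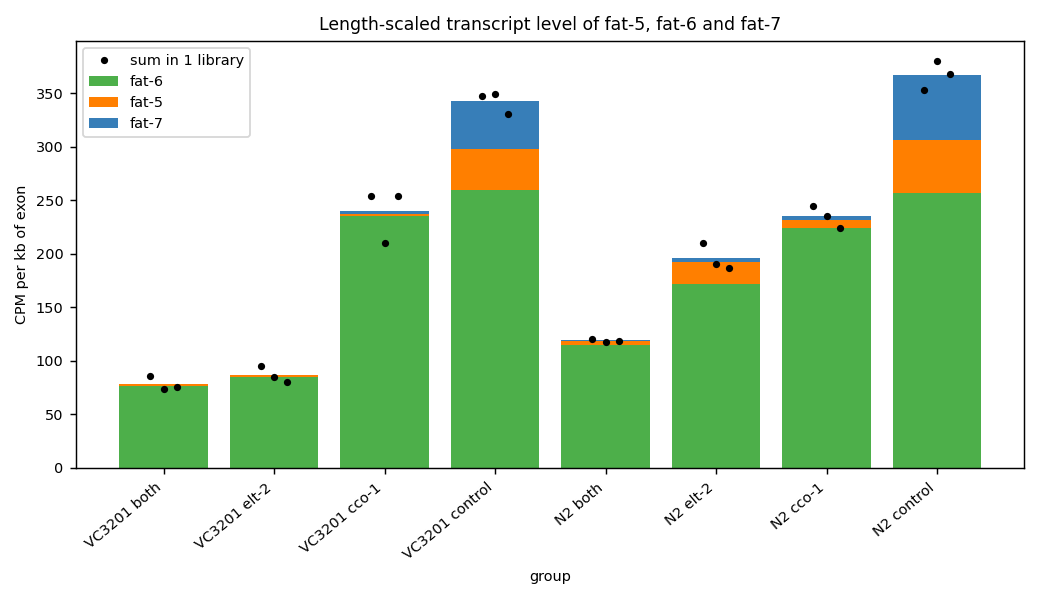
Length-scaled level (CPM per kb of exon) of fat-6, fat-5 and fat-7 stacked as group means, with the sum in each library as a point. The sum is 78.2 CPM per kb in VC3201 given both RNAi and 367 CPM per kb in N2 control, and fat-6 makes up most of each bar.

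fat-2, whose product turns oleic into linoleic acid, was the most abundant member per length in all 8 groups. It averaged 395 ± 30.3 CPM with both RNAi, 381 ± 11.8 with elt-2 RNAi, 480 ± 26.5 with cco-1 RNAi and 532 ± 9.09 CPM in control in VC3201. In N2 it averaged 508 ± 3.52, 580 ± 30.5, 595 ± 39.2 and 479.8 ± 18.2 CPM in the same groups (SD, n = 3 each). Control was thus the highest of the VC3201 groups and the lowest of the N2 groups.

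fat-3, which acts early in making the long polyunsaturated fatty acids, had its lowest values in the controls. In VC3201 it had 162, 154 and 168 CPM with both RNAi, 153, 156 and 148 CPM with elt-2 RNAi, 106, 102 and 110.1 CPM with cco-1 RNAi, and 65.8, 56.7 and 68.0 CPM in control. In N2 it had 86.0, 94.9 and 105 CPM with both RNAi, 118, 129.9 and 115 CPM with elt-2 RNAi, 67.1, 63.6 and 59.7 CPM with cco-1 RNAi, and 52.8, 52.0 and 52.7 CPM in control. The RNAi libraries of each strain lay above all its control libraries, and only the elt-2 and both RNAi groups of VC3201 overlapped among the RNAi groups of a strain.

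fat-1, the omega-3 desaturase gene, averaged 338 ± 26.0 CPM with both RNAi, 296 ± 10.9 with elt-2 RNAi, 301 ± 23.4 with cco-1 RNAi and 231 ± 10.6 CPM in control in VC3201, against 252 ± 9.27, 227 ± 15.5, 226 ± 19.6 and 199 ± 7.98 CPM in N2. fat-4, which acts after fat-3, moved least of all, with a highest library of 199 CPM (VC3201 both RNAi) and a lowest of 134 CPM (N2 control). The only fat-4 groups that stood clear of all others were VC3201 elt-2 RNAi (194 ± 2.32 CPM) and VC3201 both RNAi (192 ± 6.81 CPM), which overlapped each other (SD, n = 3 each).

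Changes were tested with limma on log2(CPM + 1), with Benjamini-Hochberg adjustment over all 14561 genes and a call at an adjusted p under 0.05. Fold changes on this scale understate changes of genes at a few CPM and below. By group means this includes fat-7 in all RNAi groups (0.0312 to 4.26 CPM). It also includes fat-5 in the RNAi groups of VC3201 (1.73 to 2.31 CPM) and in N2 given both RNAi (4.01 CPM). With a pseudocount of 5 in place of 1, the fat-7 change for elt-2 RNAi in VC3201 was -3.45 in place of -5.57, and its changes between RNAi groups were -0.79 to -0.63 in place of -1.96 to -1.68. The fat-5 difference between strains on cco-1 RNAi was -0.79 in place of -1.39, each of these still called. Comparisons within a strain that share a group of libraries are not independent of each other.

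cco-1 RNAi set against control asks how these transcripts respond when a respiratory chain subunit is lowered. In N2, 6 of 7 members were called, 3 higher and 3 lower, where 33.8% of all genes were called, 17.5% higher and 16.4% lower. fat-7 fell (log2 fold change -3.73 ± 0.11 SE, adjusted p = 4.12e-21) and held position 3 from the lowest fold change of all genes, and fat-5 fell (-2.68 ± 0.09, adjusted p = 5.5e-19) and held position 14. fat-2 rose (0.31, adjusted p = 7.26e-05) and fat-3 rose (0.27, adjusted p = 0.00204), while fat-6 fell by 0.20 (adjusted p = 0.0317) and fat-1 rose by 0.18 (adjusted p = 0.0348). The fat-6 and fat-1 calls were each lost on leaving out single libraries, fat-6 without control replicate 2 or 3 or cco-1 RNAi replicate 2 or 3 (adjusted p up to 0.127) and fat-1 without control replicate 1 or 3 or cco-1 RNAi replicate 1 or 2 (up to 0.153), and the fat-1 call also once quantile normalization was partly undone (0.14, adjusted p = 0.0865). fat-4 was not called (0.11, 95% interval 0.02 to 0.20, adjusted p = 0.0625). In VC3201, 5 of 7 members were called, 2 higher and 3 lower, where 64% of all genes were, 26.9% higher and 37.1% lower. fat-5 (-3.72, adjusted p = 7.62e-23) and fat-7 (-3.72, adjusted p = 1.25e-21) fell and held positions 7 and 8 from the lowest, and fat-3 (0.74, adjusted p = 1.28e-10) and fat-1 (0.38, adjusted p = 1.33e-05) rose. fat-2 fell by 0.15 (adjusted p = 0.0228), a call lost with other scaling factors (adjusted p = 0.20) and without control replicate 1 or 3 or cco-1 RNAi replicate 2. fat-4 (0.01) was not called, and fat-6 (-0.15, adjusted p = 0.0718) was called only in 4 of 14 alternatives (adjusted p from 0.0233 to 0.505 over all 14).

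elt-2 RNAi set against control asks the same for the intestinal GATA factor. In N2, 6 of 7 members were called, 3 higher and 3 lower, where 48% of all genes were, 26.2% higher and 21.8% lower. fat-7 fell (-4.02, adjusted p = 6.11e-23), fat-5 fell (-1.18, adjusted p = 1.28e-11) and fat-6 fell (-0.58, adjusted p = 5.91e-08). fat-3 rose (1.19 ± 0.07, adjusted p = 2.29e-15), its mean reaching 121 ± 7.78 CPM with elt-2 RNAi against 52.5 ± 0.423 CPM in control, and fat-2 rose by 0.27 (adjusted p = 0.000174). fat-1 rose by 0.18 (adjusted p = 0.0211), a call lost without control replicate 3 (adjusted p = 0.0913) or elt-2 RNAi replicate 2 (adjusted p = 0.144) and once quantile normalization was partly undone (0.11, adjusted p = 0.134), and fat-4 was not called (0.06). In VC3201 all 7 members were called, 3 higher and 4 lower, but 85.8% of all genes were called in this comparison, 36.4% higher and 49.4% lower, so the count is close to the background. fat-7 fell (-5.57, adjusted p = 6.5e-27), fat-5 fell (-3.75, adjusted p = 4.21e-24), fat-6 fell (-1.61, adjusted p = 2.51e-18) and fat-2 fell (-0.48, adjusted p = 6.07e-09). fat-3 (1.26), fat-1 (0.36) and fat-4 (0.34) rose, against a median of -0.18 over all genes. Without the VC3201 library labelled elt-2 RNAi replicate 3, whose elt-2 level was close to control, all 7 calls remained and the values ranged from -5.57 (fat-7) to 1.27 (fat-3). That library itself had fat-7 at 0.0881 and fat-5 at 2.45 CPM, within or next to the other libraries of its group. In the authors' deposited table, fitted on another scale, the fat-7 log2 fold changes for elt-2 RNAi are -9.57 in VC3201 and -4.38 in N2.

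Other transcripts moved with these groups in the whole-worm RNA, in which fewer cells of a type and less RNA per cell cannot be told apart. The 6 yolk protein genes, markers of the adult intestine, summed to 234 to 262 CPM with both RNAi, 388 to 481 with elt-2 RNAi, 33915 to 34175 with cco-1 RNAi and 69400 to 69786 CPM in control in VC3201. In N2 they summed to 21925 to 22313, 25746 to 26985, 45784 to 46536 and 73581 to 73855 CPM. With elt-2 RNAi, 6 of 6 yolk genes fell in VC3201 and 5 of 6 in N2. With cco-1 RNAi, 6 of 6 fell in VC3201 and 4 of 6 in N2. Of all genes, 49.4% fell with elt-2 RNAi in VC3201 and 21.8% in N2, and 37.1% and 16.4% with cco-1 RNAi. The yolk genes not called in N2 were vit-6 in both comparisons and vit-2 with cco-1 RNAi. These hold the top ranks of the libraries, whose value quantile normalization fixes (vit-6 averaged 19459 CPM with elt-2 RNAi and 19460 CPM in control). They could thus not show a change, and the yolk counts of the strains are not comparable. The fixed vit-6 value is part of every N2 yolk sum, so the yolk sums of the strains are not comparable either. The 11 intestine markers in the table summed to 2493 to 2655 CPM with both RNAi, 3078 to 3255 with elt-2 RNAi, 10842 to 10888 with cco-1 RNAi and 6150 to 7169 CPM in control in VC3201, and to 5400 to 5523, 4673 to 4899, 10196 to 10308 and 5764 to 5850 CPM in N2. The members of this list moved in both directions, so the sum follows its most abundant genes and not the list. With cco-1 RNAi, 7 of 11 were higher and 3 lower in VC3201 (median 0.64), and 4 higher and 5 lower in N2 (median -0.09). With elt-2 RNAi, 5 were higher and 6 lower in VC3201 (median -0.85), and 3 higher and 7 lower in N2 (median -0.36). The shares of all genes called were 64% in VC3201 and 33.8% in N2 with cco-1 RNAi. With elt-2 RNAi they were 85.8% and 48%, so the VC3201 count of intestine markers with elt-2 RNAi is near the background. No marker of any list was at 0 reads in all libraries of a group.

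Markers of other tissues moved too. With elt-2 RNAi in VC3201, where 85.8% of all genes were called (36.4% higher and 49.4% lower), 8 of 10 hypodermis and cuticle markers were higher and 2 lower, 7 of 8 oocyte and germ line markers were lower, and 7 of 7 tested sperm markers and 4 of 4 muscle markers were higher, as were 2 of 4 neuron markers. In N2 with elt-2 RNAi, where 48% of all genes were called, the hypodermis counts were 1 higher and 2 lower of 10, 4 of 8 oocyte and germ line markers were higher, 7 of 7 sperm, 2 of 4 muscle and 1 of 4 neuron markers were higher. With cco-1 RNAi, where 64% of all genes were called in VC3201 and 33.8% in N2, 7 of 10 hypodermis markers in VC3201 and 3 of 10 in N2 were higher, 2 of 10 were lower in each strain, 7 of 8 oocyte and germ line markers in VC3201 and 1 of 8 in N2 were lower, and 7 of 7 sperm and 4 of 4 muscle markers were higher in both strains. Summed sperm markers ranged from 828 to 869 CPM in VC3201 elt-2 RNAi and from 141 to 169 CPM in VC3201 control, and summed oocyte and germ line markers from 5642 to 6123 and from 8099 to 8988 CPM in those groups. The part of these tissue and stage markers in the desaturase changes was not tested.

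Worms given both RNAi, set against those given cco-1 RNAi, ask whether the cco-1 RNAi levels depend on elt-2. The level of cco-1 itself fell further when elt-2 RNAi was present, on cco-1 RNAi (-0.88 in VC3201 and -0.80 in N2) and on control (-0.37 in VC3201 and -0.31 in N2), so these groups also differ in cco-1 level. In N2, 5 of 7 members were called, 1 higher and 4 lower, where 34.1% of all genes were, 17.6% higher and 16.5% lower. fat-7 (-1.96, adjusted p = 2.99e-15), fat-6 (-0.96, adjusted p = 3.15e-12) and fat-5 (-0.78, adjusted p = 8.12e-08) fell below their cco-1 RNAi levels, and fat-2 fell by 0.22 (adjusted p = 0.00206). fat-3 rose (0.57, adjusted p = 2.66e-08), while fat-1 (0.16, adjusted p = 0.0677) and fat-4 (-0.09, adjusted p = 0.132) were not called. In VC3201 all 7 were called, 3 higher and 4 lower, where 81.1% of all genes were, 36.5% higher and 44.6% lower. fat-7 (-1.93) and fat-6 (-1.60) fell most, fat-2 fell by 0.28, and fat-3 (0.60), fat-4 (0.31) and fat-1 (0.17) rose. The fat-5 change (-0.27, adjusted p = 0.00999) was lost without cco-1 RNAi replicate 2 (adjusted p = 0.0990) or both RNAi replicate 1 (adjusted p = 0.0577), with a pseudocount of 5 and with the quantile normalization partly undone. In the authors' deposited table the same fat-5 comparison has a log2 fold change of -0.41 and an adjusted p of 0.0761. The fat-1 call was lost without cco-1 RNAi replicate 3 or both RNAi replicate 1 or 3 (adjusted p up to 0.137), and its value was 0.26 with other scaling factors.

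Both RNAi set against elt-2 RNAi gave the reverse view. In N2, 5 of 7 members were called, all lower, where 19.2% of all genes were called, 10.3% higher and 8.9% lower. fat-5 (-2.28, adjusted p = 1.51e-16) and fat-7 (-1.68, adjusted p = 1.4e-12) held positions 5 and 10 from the lowest fold change. fat-6 (-0.57), fat-3 (-0.34) and fat-2 (-0.19, adjusted p = 0.0164) also fell. The fat-2 call was lost without elt-2 RNAi replicate 1 (adjusted p = 0.111) or both RNAi replicate 1. fat-3 thus lay lower with both RNAi than with elt-2 RNAi alone, and higher with both than with cco-1 RNAi alone. fat-1 (0.15) and fat-4 (-0.04) were not called. In VC3201, 2 of 7 were called, fat-1 higher (0.19, adjusted p = 0.0276) and fat-5 lower (-0.25, adjusted p = 0.0471), where 31.2% of all genes were, 14.1% higher and 17.1% lower. The count was 0 without elt-2 RNAi replicate 3 or both RNAi replicate 3, and 1 without elt-2 RNAi replicate 1 or 2 or both RNAi replicate 1. fat-2, fat-3, fat-4 and fat-6 lay between -0.14 and 0.08, and no fold change is given for fat-7.

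**Figure D3:**
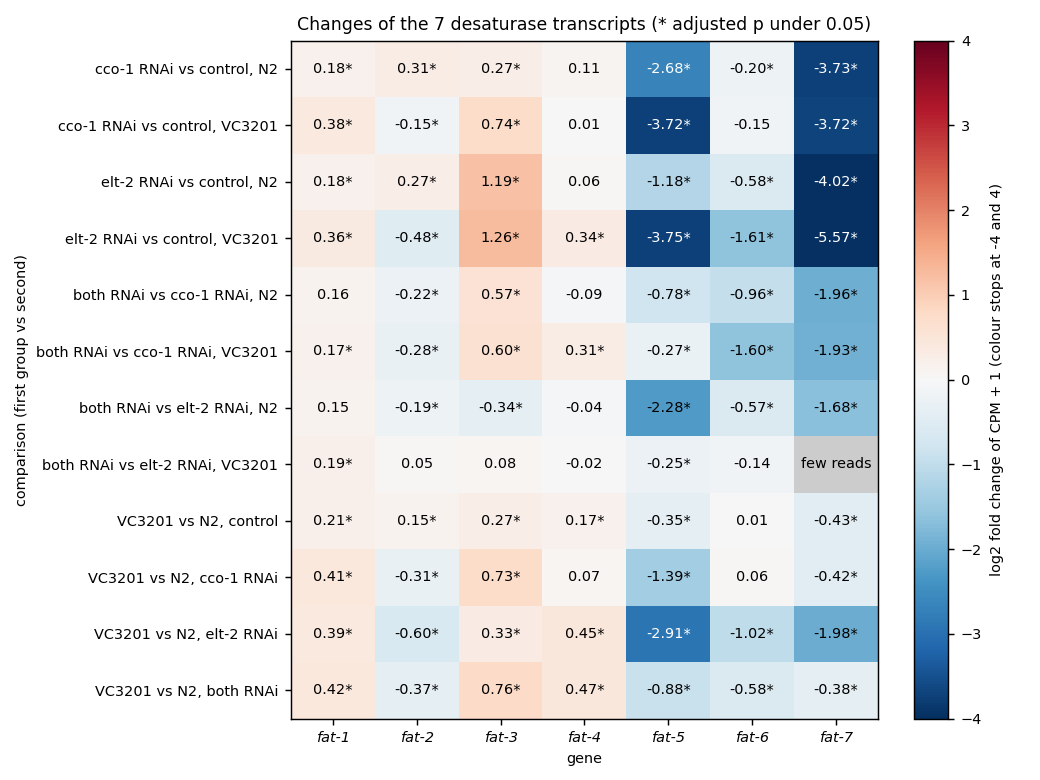
Log2 fold change of CPM + 1 for the 7 genes in 12 pairwise comparisons, the group named first over the group named second, with an asterisk at an adjusted p under 0.05 (limma). fat-5, fat-6 and fat-7 are negative in the RNAi comparisons that were called, and the grey cell marks fat-7 where few reads remained in both groups.

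The interaction of the 2 RNAi clones asks whether adding elt-2 RNAi changes a transcript differently on cco-1 RNAi than on control RNAi. In N2, 5 of 7 members were called, 2 positive and 3 negative, where 13% of all genes were, 7.09% positive and 5.95% negative. The fat-3 rise with elt-2 RNAi was smaller on cco-1 RNAi (interaction -0.61 ± 0.09, adjusted p = 1.49e-05), as the elt-2 changes of 0.57 on cco-1 RNAi and 1.19 on control show. fat-2 rose with elt-2 RNAi on control and fell on cco-1 RNAi (-0.50, adjusted p = 2.99e-05), and the fat-6 fall was larger on cco-1 RNAi (-0.37, adjusted p = 0.0107). fat-7 had a positive interaction (2.06, adjusted p = 3.61e-11), its mean with elt-2 RNAi being 0.0815 of that without it on cco-1 RNAi and 0.0480 on control. Its size depends on the pseudocount, being 1.70 with 0.5 and 2.36 with 5, and in the authors' deposited table the elt-2 RNAi changes of fat-7 in N2 are -3.65 on cco-1 RNAi and -4.38 on control, which lie closer together. The fat-5 interaction (0.40, adjusted p = 0.0478) was lost in 15 of 20 alternatives, among them leaving out any 1 of the 12 N2 libraries but control replicate 1 (adjusted p up to 0.124). In VC3201, 4 of 7 members were called, 3 positive and 1 negative, where 41.1% of all genes were, 21% positive and 20.1% negative. These were fat-7 (3.64), fat-5 (3.47), fat-3 (-0.66, adjusted p = 1.73e-06) and fat-2 (0.19, adjusted p = 0.0493), the last lost in 13 of 20 alternatives, 8 of them without a single library, which was any of the 3 controls, cco-1 RNAi replicate 2, elt-2 RNAi replicate 2 or 3, or both RNAi replicate 1 or 3 (adjusted p up to 0.178). fat-7 already held few reads with elt-2 RNAi in VC3201 (0.0875 ± 0.0652 CPM) and with both RNAi in N2 (0.347 ± 0.0970 CPM, SD, n = 3 each). This limits how far a further fall of fat-7 could be measured. fat-5 in VC3201 averaged 2.24 CPM with elt-2 RNAi and 2.31 CPM with cco-1 RNAi, well above the 0.0220 CPM that stands for 0 reads. For fat-5 the added 1 shrinks a further fall on the log2 scale.

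Genes of fatty acid synthesis and elongation, regulators of desaturase genes and electron donors were counted as lists. Of 12 fatty acid synthesis and elongation genes, 6 were higher and 5 lower with elt-2 RNAi in VC3201 (median 0.07) and 1 higher and 6 lower in N2 (median -0.19). The share of all genes called was 85.8% in VC3201 and 48% in N2, so 11 of 12 in VC3201 is near the background. The smallest adjusted p in both strains was that of elo-6, an elongase gene of monomethyl branched-chain fatty acid synthesis, which fell by 2.57 in VC3201 (25.1 ± 2.27 CPM with elt-2 RNAi against 154 ± 8.90 CPM in control, SD, n = 3 each) and by 1.74 in N2. elo-5, another elongase gene of that pathway, fell by 1.74 in VC3201 and by 0.84 in N2. With cco-1 RNAi, 3 of these 12 were higher and 3 lower in VC3201 (median -0.02), and 4 and 4 in N2 (median 0.06), where 64% of all genes were called in VC3201 and 33.8% in N2. pod-2, the acetyl-CoA carboxylase gene, rose in both strains (0.54 in VC3201 and 0.39 in N2), and elo-6 fell by 0.84 in VC3201 and by 0.58 in N2. Both RNAi against cco-1 RNAi gave 5 higher and 6 lower in VC3201 (81.1% of all genes called), and 0 higher and 7 lower in N2 (34.1%). VC3201 against N2 gave 2 higher and 3 lower in control (49.3% of all genes called), 1 and 3 with cco-1 RNAi (55.8%), 4 and 4 with elt-2 RNAi (77.9%), and 6 and 4 with both RNAi (80.4%).

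Of 12 genes for known regulators of desaturase genes, 3 were higher and 7 lower with elt-2 RNAi in VC3201 (median -0.21), and 3 higher and 5 lower in N2 (median -0.02). Against 85.8% of all genes called in VC3201 and 48% in N2, the VC3201 count is no more than the background. In VC3201 these were led by the nuclear receptor genes nhr-13 (-1.48) and nhr-80 (-1.05), and by daf-16, a FOXO transcription factor gene, which rose by 0.84. In N2 acdh-11 (-0.47), an acyl-CoA dehydrogenase gene, nhr-80 (-0.72) and sbp-1 (-0.47), the worm SREBP gene, had the smallest adjusted p. nhr-80 averaged 5.14 CPM with both RNAi, 5.63 with elt-2 RNAi, 10.5 with cco-1 RNAi and 12.7 CPM in control in VC3201, and 6.35, 6.52, 10.3 and 11.3 CPM in N2. With cco-1 RNAi, 3 regulators were higher and 3 lower in VC3201, and in N2 sbp-1 alone was called (-0.22, adjusted p = 0.0352). Among 5 electron donor and dihydroceramide desaturase genes, cytb-5.1, a cytochrome b5 gene, fell with elt-2 RNAi by 1.30 in VC3201 and by 0.90 in N2, in counts of 1 higher and 3 lower and of 0 higher and 2 lower. With cco-1 RNAi the counts of this list were 1 higher and 1 lower in VC3201 and 1 higher and 0 lower in N2. Of all genes, 64% were called with cco-1 RNAi in VC3201 and 33.8% in N2. The cco-1 RNAi counts of regulators and of this list are thus no more than the background. The median change over all genes was -0.18 for elt-2 RNAi in VC3201 and lay between -0.06 and 0.02 in the other 3 comparisons with control.

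The strains were also set side by side on the same food. The numbers of members called follow shares of all genes that were themselves large, and with elt-2 or both RNAi they are near the background. On control RNAi, 6 of 7 members were called, 4 higher and 2 lower, where 49.3% of all genes were, 26.7% higher and 22.6% lower. fat-7 (-0.43, adjusted p = 0.00150) and fat-5 (-0.35, adjusted p = 0.00371) were lower in VC3201, and fat-3 (0.27), fat-1 (0.21), fat-4 (0.17) and fat-2 (0.15, adjusted p = 0.0290) were higher. The fat-2 call was lost with other scaling factors (0.10, adjusted p = 0.167) and without control replicate 1 or 3 of either strain. fat-6 was not called (0.01, 95% interval -0.13 to 0.16). On cco-1 RNAi, 5 of 7 were called (55.8% of all genes, 26.6% higher and 29.2% lower), with fat-5 (-1.39), fat-7 (-0.42) and fat-2 (-0.31) lower and fat-3 (0.73) and fat-1 (0.41) higher in VC3201. On elt-2 RNAi all 7 were called (77.9% of all genes, 33.1% higher and 44.8% lower), fat-5 (-2.91), fat-7 (-1.98), fat-6 (-1.02) and fat-2 (-0.60) lower and fat-4 (0.45), fat-1 (0.39) and fat-3 (0.33) higher. On both RNAi all 7 were called (80.4% of all genes, 36.2% higher and 44.2% lower), fat-5 (-0.88), fat-6 (-0.58), fat-7 (-0.38) and fat-2 (-0.37) lower and fat-3 (0.76), fat-4 (0.47) and fat-1 (0.42) higher. The fat-7 call on both RNAi was lost with a pseudocount of 5 (-0.09, adjusted p = 0.182), and it rests on 1 read in the 3 VC3201 libraries against 27 in the 3 N2 libraries. Hypodermis and cuticle markers were 0 higher and 9 lower of 10 on control, 2 and 4 on cco-1 RNAi, 8 and 1 on elt-2 RNAi, and 8 and 2 on both RNAi. Sperm markers were 6 higher and 0 lower of 7 on control and on cco-1 RNAi, and 7 higher and 0 lower on elt-2 and on both RNAi. Oocyte and germ line markers were 2 higher and 2 lower of 8 on control, 1 and 7 on cco-1 RNAi, 0 and 7 on elt-2 RNAi, and 0 and 8 on both RNAi. Yolk genes were 0 higher and 2 lower of 6 on control, 0 and 5 on cco-1 RNAi, and 0 and 6 on elt-2 and on both RNAi. On control, vit-2, vit-5 and vit-6 (log2 fold change 8.98e-05 each) held top ranks that quantile normalization fixes. They could not show a change there, so the yolk counts are not comparable between foods. Intestine markers were 1 higher and 3 lower of 11, 5 and 4, 5 and 4, and 5 and 5 in the same order of foods. On cco-1 RNAi, the intestine marker asp-1 was not called (log2 fold change 3.00e-05). It lay there at a value that quantile normalization fixes and could not show a change. The part of these markers in the strain differences was not tested.

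The difference in response between strains was tested as such, and the numbers of members called were near the shares of all genes called. To cco-1 RNAi, 3 of 7 members responded differently, 1 with a positive and 2 with a negative difference, where 40% of all genes did, 16.8% positive and 23.2% negative. fat-2 fell in VC3201 and rose in N2 (difference -0.46 ± 0.08, adjusted p = 4.11e-05), the fat-3 rise was larger in VC3201 (0.47, adjusted p = 0.000213), and the fat-5 fall was larger in VC3201 (-1.05 ± 0.13, adjusted p = 4.75e-07). For fat-7 the difference was 0.02 with a 95% interval from -0.30 to 0.33 and was not called. To elt-2 RNAi, 5 of 7 members responded differently, 1 with a positive and 4 with a negative difference, where 72.8% of all genes did, 30.7% positive and 42.1% negative. The falls of fat-5 (-2.56, adjusted p = 1.21e-15), fat-7 (-1.55, adjusted p = 5.5e-10) and fat-6 (-1.03, adjusted p = 4.87e-10) were larger in VC3201, fat-2 again differed in direction (-0.75, adjusted p = 2.07e-09), and fat-4 rose more in VC3201 (0.28, adjusted p = 0.000215). The fat-3 response to elt-2 RNAi was not called different (0.07, 95% interval -0.12 to 0.26) except with other scaling factors (0.25, adjusted p = 0.0173), nor was that of fat-1 (0.18, 95% interval -0.01 to 0.36) except with other scaling factors (0.36, adjusted p = 0.000942) and in 3 other alternatives. With a pseudocount of 5 the fat-7 and fat-5 differences for elt-2 RNAi were -0.30 and -1.65 and the fat-5 difference for cco-1 RNAi was -0.47, all still called, and with other scaling factors the fat-4 difference was 0.46.

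**Figure D4:**
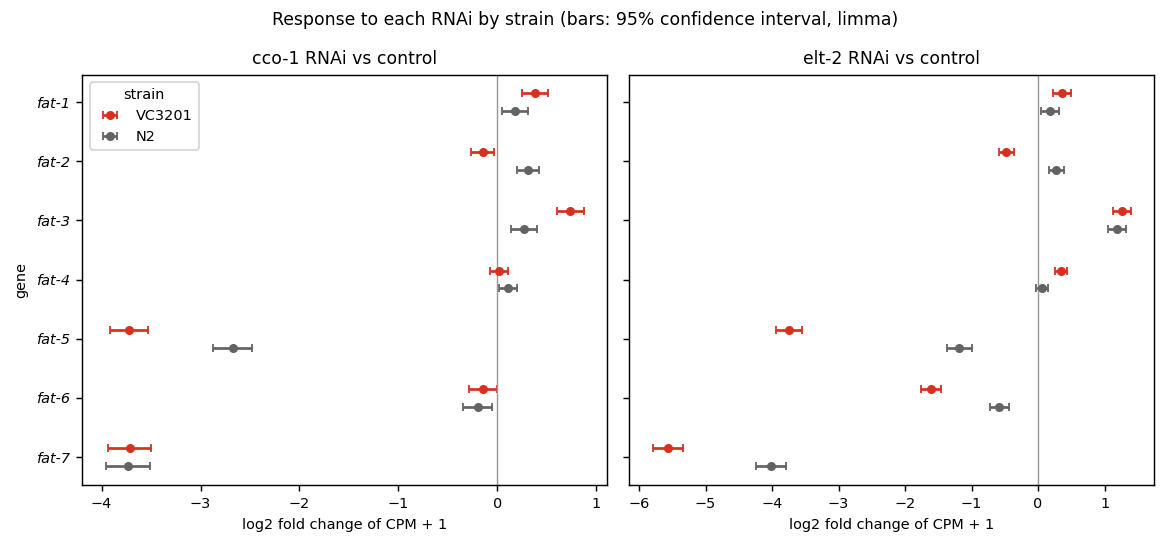
Log2 fold change of CPM + 1 against control for cco-1 RNAi (left) and elt-2 RNAi (right), VC3201 above N2 for each gene, with 95% confidence intervals (limma). fat-2 lies on opposite sides of 0 in the 2 strains under both RNAi clones, and fat-5 with elt-2 RNAi lies at -3.75 in VC3201 and -1.18 in N2.

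Across the 8 group means of log2(CPM + 1), the members did not follow a common course. fat-5 and fat-7 ran together (Pearson r = 0.90 over 8 groups), as did fat-6 and fat-7 (0.84) and fat-1 and fat-3 (0.83), while fat-1 and fat-5 (-0.88) and fat-3 and fat-7 (-0.85) ran against each other. These points share libraries and a normalization, and groups are few. Among the genes compared, which reached 10 CPM in some group, the 2 closest in course were elo-5 (r = 0.99) and F59F4.1 (0.99) for fat-6, clec-190 (0.99) and Y57A10A.27 (0.97) for fat-5, and tpst-1 (0.98) and ZC266.1 (0.98) for fat-7. They were C05D9.9 (0.99) and mlc-7 (0.99) for fat-1, mma-1 (0.98) and sir-2.1 (0.98) for fat-2, Y43F8B.9 (0.98) and Y53C12B.7 (0.98) for fat-3, and mac-1 (0.99) and F54C8.1 (0.98) for fat-4.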

How the data were processed

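RNA-seq of whole worms was deposited as CPM for 16927 genes, quantile-normalized over the 24 libraries by the authors, as their key sheet and the equal column sums (1000373 CPM) show. At 52.6% of ranks the sorted libraries agreed within 1%. Log2 fold changes and adjusted p-values were also deposited (Limma-Voom, per the file headers' key sheet) and are quoted only where named. The genome build WBcel235 and the tools STAR 2.73a and edgeR 3.24.3 are named, per the submitters' processing notes. Which tool counted reads, on which annotation, is not given here.

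The 14561 genes whose mean reached 1 CPM in any group were tested. log2(CPM + 1) was fitted in limma 3.58.1 (R 4.3.3) as 8 group means over 24 libraries with a mean-variance trend, 2-sided, Benjamini-Hochberg over all genes kept. Reads were ranked back from tied low values for 48.6% to 61.5% of genes per library, and intervals and floors cover counting error only. Per-length levels use Ensembl 115 exon lengths.

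All 7 members are named in every comparison. From each list at most the 3 genes with the smallest adjusted p are named, and the 2 genes most like each member by Pearson r. Members and lists were chosen with earlier results of these data known. Alternatives were other pseudocounts (0.5 and 5), no filter, TMM factors (trimmed mean of M values, trims of 0.3 and 0.05) computed on the deposited CPM, limma-voom, only the groups compared, a replicate block, leaving out each library, and, added after the data were seen, a partial undoing of the quantile normalization (reads ranked back at low values, 1 factor per library above them, then TMM). limma-voom was also run on the deposited CPM and not on read counts, so its weights do not reflect library depth. The labels name no batch. The fit was also run on simulated data with independent noise and few changed genes, which cannot show what the quantile normalization did.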

Additional observations from a re-analysis of the deposited data

Results flagged for a closer look

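The strains differed in their response to the same RNAi clone for 8 gene and clone pairs by the test of the difference itself (limma, log2 scale of CPM + 1, VC3201 minus N2). For cco-1 RNAi these were fat-2 (-0.46), fat-3 (0.47) and fat-5 (-1.05). For elt-2 RNAi they were fat-2 (-0.75), fat-4 (0.28), fat-5 (-2.56), fat-6 (-1.03) and fat-7 (-1.55). fat-2 was the member whose called changes had opposite signs in the strains for both clones, lower in VC3201 and higher in N2, but its call for cco-1 RNAi in VC3201 (-0.15, adjusted p = 0.0228, limma) was lost with TMM factors (adjusted p = 0.20) and without control replicate 1 or 3 or cco-1 RNAi replicate 2 (adjusted p up to 0.135). The fat-7 difference was -0.30 with a pseudocount of 5, which is above the fat-7 mean with elt-2 RNAi in either strain. Over all genes, 40% responded differently to cco-1 RNAi and 72.8% to elt-2 RNAi, so 3 and 5 of 7 members are near the background. Groups of 3 libraries were not searched for single outlying samples.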

How the results depend on the processing

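Of 1736 alternative values for single genes, 1642 kept their side of the threshold, 74 lost a call and 20 gained one. Of the values called in the reported fit, 0 changed sign, and the direction of values not called was not compared. The number of members called stayed within 1.5 times of the reported one in 15 of the 16 comparisons under every alternative run. The exception was both RNAi against elt-2 RNAi in VC3201, where 2 members were called. It was 1 with a pseudocount of 5, with no filter, with limma-voom, with only the groups compared and with a replicate block, 0 with the quantile normalization partly undone, and 0 to 2 on leaving out single libraries, for which the cause was not tested. Replicate numbers showed no pairing at a cut-off of 0.1: in 0 of 28 pairs of groups did all 3 correlations of same-numbered libraries pass it (range -0.10 to 0.15). In 9 pairs all 3 were above 0, and this cut-off cannot show a weaker pairing. With the replicate block, 2 single-gene calls were lost and 1 was gained. Scaling moved the median of all genes for elt-2 RNAi in VC3201, from -0.18 as deposited to -0.05 with TMM factors. The higher share of all calls moved by over 10 points for the cco-1 response by strain (42.1% as reported and 53.3% with TMM) and for the VC3201 interaction (51.1% and 41.1%, or 39.8% with the normalization partly undone). Quantile normalization over groups that differ this widely, few reads below 1 CPM and 3 libraries per group limit all values.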
